A study of Schmidtea mediterranea with 15 samples.

Results

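The last sampled step of trunk regeneration in the planarian flatworm Schmidtea mediterranea was examined by comparing fragments at day 7 with fragments at day 5. The comparison uses 6 of the 15 libraries of the series, 3 at each day, chosen by their sample titles. All libraries were made from poly(A) RNA of animals of the sexual S2F2 biotype. The other 9 libraries are trunk fragments at day 0 (3) and day 3 (3) and whole juvenile animals (3), and they serve here as reference levels and for the estimate of spread. No treatment is labelled in any group, and the labels do not say whether a library came from 1 animal or a pool, so p-values measure a spread between libraries that may be technical in part.

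Planarians rebuild missing body parts from pluripotent stem cells called neoblasts, which divide and supply both the new tissue at the wound (the blastema) and the turnover of the old tissue. A trunk fragment has to form a new head and a new tail and to rescale the organs it kept. The sexual biotype is a cross-fertilizing hermaphrodite, and adults carry testes, ovaries, yolk glands and a copulatory apparatus that juveniles have not yet matured. The deposited identifiers are not paired with gene names, so no transcript below can be assigned to any of these tissues, and the labelled tissue could not be checked against its marker genes.

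Total counts were 59034917, 36927291 and 46299068 in day 5 replicates 1 to 3 and 48569090, 45862344 and 50684775 in day 7 replicates 1 to 3, and 20338464 to 52422628 in the other libraries. Of 92053 sequence records, called transcripts here although several can represent 1 gene, 46736 had enough counts to be tested. Day 7 libraries stood further apart than day 5 libraries. In a principal component analysis of log2 CPM (counts per library size, with sizes adjusted by the trimmed-mean method TMM) the leading component held 66.6% of the variance. On it day 5 libraries lay at -36.4, -57.9 and -68.1 and day 7 libraries at 51.5, 123 and 1.34. Day 0 replicate 3 (-178 against -105 and -106) and day 3 replicate 3 (-95.3 against -11.4 and -16.1) also stood apart from their groups. Since whole fragments were sequenced, fewer cells of a type and less RNA per cell cannot be told apart.

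In the last step 131 transcripts rose and 243 fell (edgeR quasi-likelihood test, Benjamini-Hochberg adjusted p under 0.05), or 0.280% and 0.520% of those tested. The rises were small and the falls larger. The median log2 fold change was 0.52 among the transcripts that rose, with quartiles of 0.38 and 0.73, and -1.38 among those that fell, with quartiles of -1.65 and -0.66. At least 2-fold changes were found in 13 of the 131 (0.0278% of those tested) and in 166 of the 243 (0.355%). The 131 risen transcripts together took 0.625%, 0.633% and 0.663% of the counts in the 3 day 5 libraries and 0.849%, 0.885% and 0.875% in the 3 day 7 libraries. The 243 fallen transcripts took 1.05%, 1.10% and 1.15% at day 5 and 0.603%, 0.672% and 0.675% at day 7. The 10 transcripts with the largest CPM differences held 54.7% of the summed rise and 46.8% of the summed fall.

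Every called transcript had all 3 day 7 libraries on the same side of all 3 day 5 libraries, a separation also seen in 11.3% (higher) and 14.5% (lower) of all tested transcripts. The counts depended on single libraries. Without day 5 replicate 1, 2 or 3 there were 59, 34 and 57 rises and 140 falls each time. Without day 7 replicate 1, 2 or 3 there were 43, 48 and 74 rises and 189, 148 and 165 falls, and without day 0 replicate 3, which enters through the shared spread, 230 and 383. The 13 rises of at least 2-fold were 6, 2 and 9 without day 5 replicate 1, 2 or 3, 6 and 3 without day 7 replicate 1 or 3, 26 without day 0 replicate 3 and 21 with day 3 replicate 2 left out. The 166 falls of at least 2-fold were 104 without day 5 replicate 3. The direction of all 374 was kept each time a single library was left out. Since their day 5 and day 7 libraries did not overlap, this outcome was largely fixed in advance. With upper-quartile scaling, which moved the median log2 fold change of all transcripts from 0.02 to 0.177, the split was 215 higher and 156 lower.

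**Figure D1:**
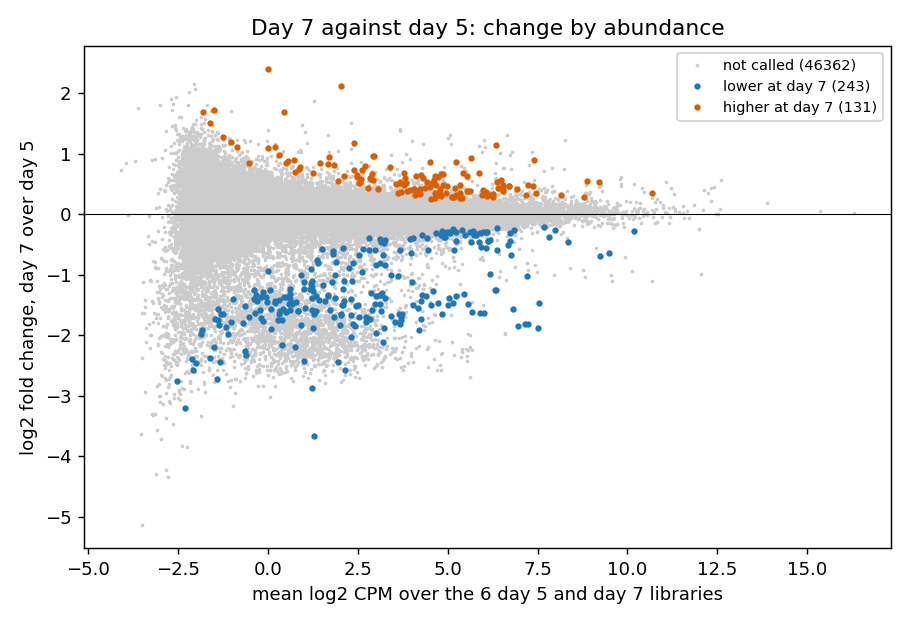
Estimated log2 fold change of day 7 over day 5 (y axis) against mean log2 CPM over the 6 day 5 and day 7 libraries (x axis, a log scale), 1 point per tested transcript. The 131 called higher (orange) lie mostly within 1 log2 unit of 0, while the 243 called lower (blue) reach -3.67, and a cloud of uncalled transcripts (grey) lies at -1 to -3.

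A set of 4 transcripts is described singly, the 2 with the smallest adjusted p in each direction. GDAG01048869.1 stood at 39.8, 35.0 and 35.1 CPM in the day 5 libraries and at 71.6, 74.1 and 64.5 CPM in the day 7 libraries. Its lowest day 7 library was above its highest day 5 library, and the change was 1.91-fold (log2 fold change 0.94, SE 0.09, edgeR adjusted p = 0.00011). Its group mean was lowest at day 5: day 0 libraries had 63.6, 65.4 and 63.0 CPM, day 3 libraries 38.8, 51.5 and 41.6 CPM and juveniles 63.5, 60.7 and 56.4 CPM. It had fallen from day 0 to day 3 (log2 fold change -0.54, SE 0.09, edgeR adjusted p = 0.0016). From day 3 to day 5 the change did not pass (-0.26, SE 0.09, edgeR adjusted p = 0.64), and its day 7 libraries overlapped those of day 0. They lay above those of juveniles, where the log2 difference of 0.22 with an SE of 0.09 did not pass the test (edgeR adjusted p = 0.16).

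GDAG01011988.1 was at 48.5, 47.6 and 43.3 CPM at day 5 and at 74.3, 76.4 and 72.6 CPM at day 7, a 1.60-fold rise (log2 fold change 0.68, SE 0.06, edgeR adjusted p = 0.00011). Before the step it stood at 46.8, 51.5 and 49.4 CPM at day 0 and 50.8, 53.9 and 45.4 CPM at day 3, and the change between those days did not pass the test (log2 fold change 0.02, SE 0.06, edgeR adjusted p = 0.85). Juveniles had 69.1, 70.7 and 67.5 CPM, all below the lowest day 7 library and above the highest library of days 0, 3 and 5, and exceeded day 0 with a log2 fold change of 0.49 (edgeR adjusted p = 2.7e-05, SE 0.06). No other transcript correlated with GDAG01048869.1 or with GDAG01011988.1 above 0.95 in log2 CPM over the 15 libraries.

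GDAG01013458.1 went from 13.0, 10.8 and 11.7 CPM at day 5 to 2.97, 4.60 and 3.36 CPM at day 7, or -1.71 on the log2 scale with an SE of 0.15 (edgeR adjusted p = 0.00011). Day 0 libraries had 22.3, 30.3 and 29.4 CPM and day 3 libraries 18.4, 16.9 and 14.3 CPM. The libraries of no 2 days overlapped, but the difference between day 3 and day 5 did not pass the test (log2 fold change -0.48, SE 0.15, edgeR adjusted p = 0.58). In juveniles it had 1 count in each of the 3 libraries, or 0.0247 to 0.035 CPM. Its profile over the 15 libraries was shared by 310 transcripts at a correlation above 0.95. Of these, 143 were also called lower at day 7, against 0.520% of all tested. The correlation includes the day 5 and day 7 libraries, which favours such calls.

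GDAG01077288.1 fell from 6.51, 7.52 and 7.89 CPM at day 5 to 1.86, 2.53 and 2.48 CPM at day 7 (log2 fold change -1.67, SE 0.16, edgeR adjusted p = 0.00011), after 17.9, 20.3 and 22.1 CPM at day 0 and 12.6, 11.3 and 10.7 CPM at day 3. Between day 3 and day 5 its change did not pass (-0.66, SE 0.15, edgeR adjusted p = 0.28). Its juvenile level was not near 0. Juveniles had 1.09, 1.75 and 1.71 CPM, below every day 7 library, and the log2 fold change of day 7 over juveniles was 0.59 (edgeR adjusted p = 0.036, SE 0.17). For this transcript 55 others correlated above 0.95, 31 of them called lower at day 7, against 0.520% of all tested. Here too the correlation includes the day 5 and day 7 libraries, which favours such calls.

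**Figure D2:**
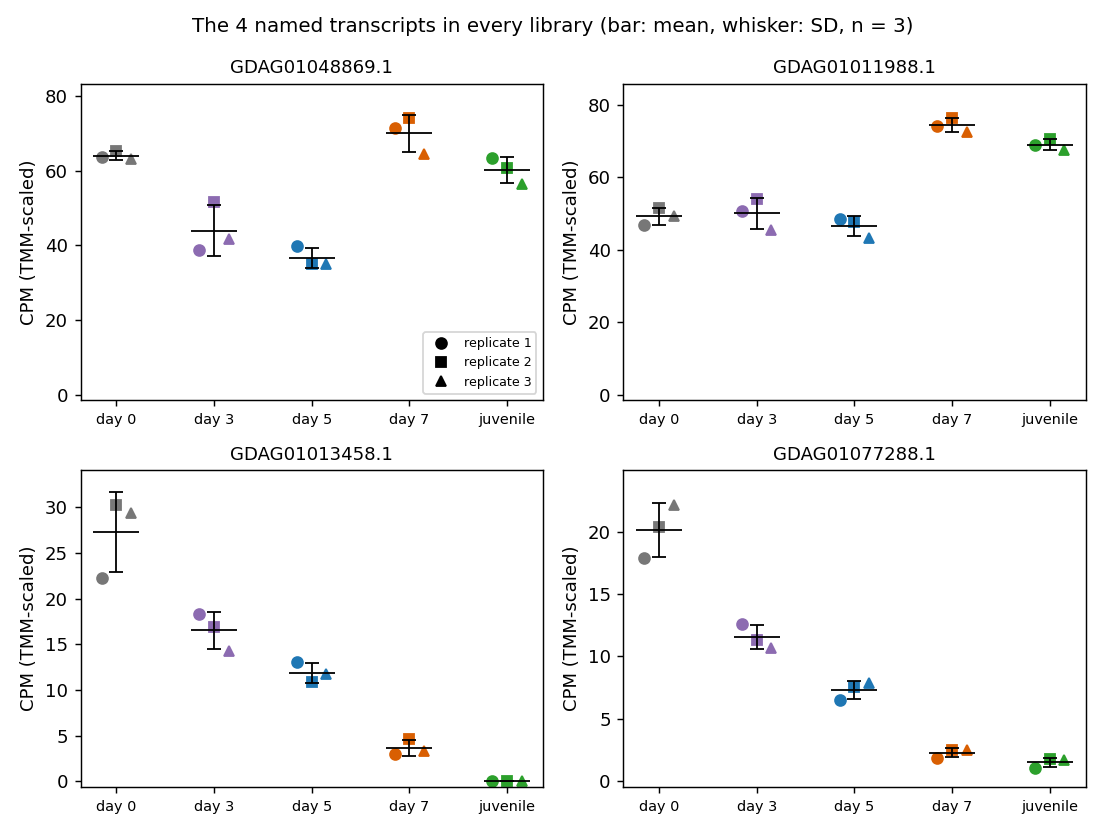
CPM of the 4 transcripts described singly (y axis, linear) in each of the 15 libraries, by group (x axis); symbols mark replicate numbers, the long bar is the group mean and the whiskers are 1 SD (n = 3). The upper pair rises from day 5 to day 7 to levels near those of juveniles, and the group means of the lower pair are lower at each later day, although the day 3 to day 5 change did not pass the test for either.

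The transcripts that fell from day 5 to day 7 were, as a group, those that juveniles lack or hold at a lower level. The difference between juveniles and day 0 was measured in libraries that the step does not use, although the same fit estimated both. Of the 243 fallen transcripts, juveniles were called lower than day 0 for 232 (95.5%) and higher for 0, with 0 higher at an unadjusted p under 0.05 and 0 by DESeq2, while 2 had an estimate above 0. Over all tested transcripts 19.0% were called lower and 12.1% higher in juveniles. The median log2 fold change of juveniles over day 0 was -7.65 for the fallen transcripts and 0.0633 for all tested. Of the 243, 106 were under 0.1 CPM in juveniles and 29 had no count in any juvenile library. A transcript with a small spread is more easily called in each comparison, so these shares are partly shares of steady transcripts.

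The day 0 to day 3 step, which also shares no library with day 5 or day 7, had already lowered part of these transcripts. Of the 243, 110 (45.3%) were called lower and 1 (0.412%) higher at day 3 than at day 0, beside 5.48% and 3.02% of all tested. The median log2 fold change of day 3 over day 0 was -0.56 for the 243 and -0.00136 for all tested. Between day 3 and day 5 the edgeR test called 0 of the 243 in either direction, in a comparison that called 0.0171% of all tested higher and 0.00214% lower and that shares the day 5 libraries with the step described here. At an unadjusted p under 0.05, 31 of the 243 were higher and 84 lower at day 5 than at day 3, against 1271 and 1763 of all 46736, and DESeq2 called 0 higher and 9 lower. Group means fell in the order day 0, day 3, day 5, day 7 and juvenile for 173 of the 243, against 2255 of all 46736. The choice of the list fixes the day 5 to day 7 part of this order. The median transcript of the 243 went through 19.2, 11.4, 9.57, 3.60 and 0.178 CPM.

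Falls of at least 2-fold and smaller falls are described apart. All 166 with at least 2-fold falls had a call below day 0 in juveniles, against 19.0% of all tested. All 166 had their highest group mean at day 0, as did 14039 of all 46736. Their median was 4.96 CPM at day 5, 1.63 CPM at day 7 and 0.0436 CPM in juveniles. Of these, 155 were still called higher at day 7 than in juveniles, as were 5.21% of all tested. The 77 with smaller falls went from a median of 36.8 CPM at day 5 to 29.1 CPM at day 7, with 38.4 CPM at day 0, 35.0 CPM at day 3 and 23.2 CPM in juveniles. Of these 77, 36 had their highest group mean at day 5, as did 4426 of all 46736, and the choice by a fall from day 5 favours that. A lower mean at day 7 than at day 0 and in juveniles was found for 20 of the 77. That share is near the 10720 of all 46736.

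For most of the transcripts that rose, the group mean was lowest at day 5. Day 5 was the lowest of the 5 group means for 81 of the 131 (and for 7528 of all 46736), day 0 for 32, day 3 for 9 and juveniles for 9; a low level at day 5 favours a call here, so the first number is a description. The median transcript of the list stood at 21.8 CPM at day 0, 19.0 CPM at day 3, 17.7 CPM at day 5, 25.1 CPM at day 7 and 23.5 CPM in juveniles. At day 7 the group mean lay above both day 0 and juveniles for 72, between them for 41 and below both for 18. Over all 46736 these numbers were 12187, 23829 and 10720. A high level at day 7 favours a call here, so the 72 are a description too. Of the 131, 51 (38.9%) were called higher and 9 (6.87%) lower in juveniles than at day 0, against 12.1% and 19.0% of all tested. The estimate was above 0 for 104 (79.4%), against 55.0% of all tested. The day 0 to day 3 step showed no single direction for this list, with 18 (13.7%) called higher and 29 (22.1%) lower and 67 of 131 estimates above 0. From day 3 to day 5 the edgeR test called 0 of the 131 lower and 1 higher, with a median log2 fold change of -0.18. An unadjusted p under 0.05 was found for 63 lower and 3 higher, against 1763 and 1271 of all 46736. DESeq2 called 8 lower and 2 higher. The list was chosen for low values in the day 5 libraries, which this comparison shares, so a lean towards lower is favoured. The 13 with at least 2-fold rises were scarce, with a median of 0.418 CPM at day 5, 1.39 CPM at day 7 and 1.28 CPM in juveniles, and 6 of them were called higher in juveniles than at day 0.

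**Figure D3:**
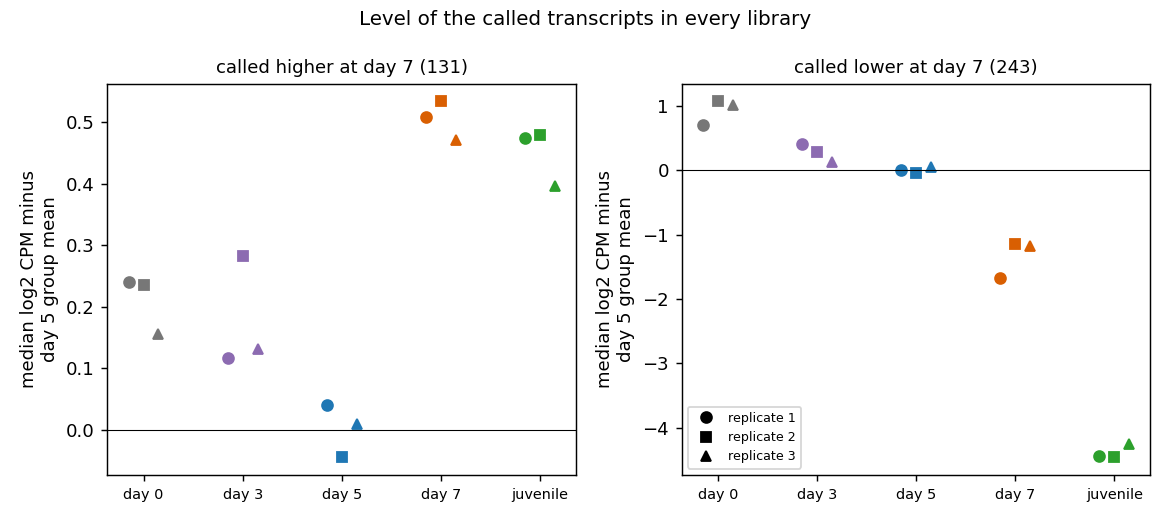
Median over the called transcripts of log2 CPM minus the day 5 group mean (y axis) in each of the 15 libraries, by group (x axis), for the 131 transcripts called higher (left) and the 243 called lower (right); the 2 panels have different scales, and day 5 and day 7 were used to choose both lists. Day 7 libraries lie at 0.47 to 0.53 on the left, beside juveniles at 0.40 to 0.48, and at -1.68 to -1.15 on the right, between day 5 and juveniles at -4.45 to -4.25.

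**Figure D4:**
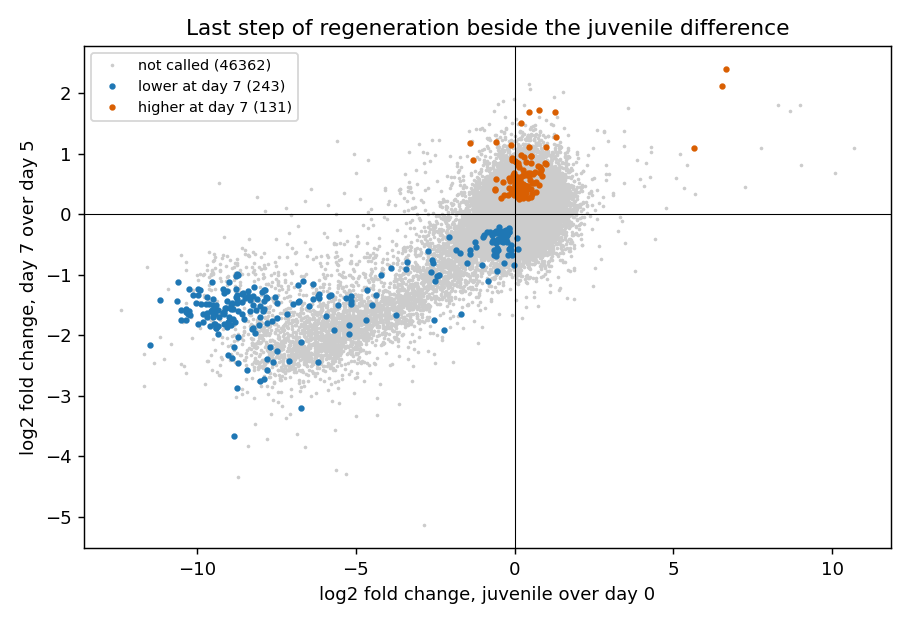
Log2 fold change of day 7 over day 5 (y axis) against log2 fold change of juveniles over day 0 (x axis), 2 differences that share no library, 1 point per tested transcript. Of the 243 called lower (blue), 241 lie left of 0 on the x axis, and of the 131 called higher (orange) 104 lie right of 0.

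To describe the falling transcripts without choosing them by the step itself, a set was taken from day 0 and juvenile libraries alone. It held 3037 transcripts called lower in juveniles by at least 4-fold. By edgeR 173 of them (5.70%) passed as lower in the last step and 0 as higher, beside 0.520% and 0.280% of all tested, and these 173 were 71.2% of all falls. At an unadjusted p under 0.05, 1939 were lower and 5 higher, and DESeq2 called 631 lower and 1 higher. Over all 46736 the unadjusted p gave 3872 lower and 2963 higher, and DESeq2 gave 910 and 410. Estimates were below 0 for 2988 of the 3037 (98.4%) against 46.7% of all tested, and all 3 day 7 libraries lay below all 3 day 5 libraries for 2542 (83.7%) against 14.5%. The median log2 fold change was -1.71. Without day 5 replicate 3 the 173 were 110. The summed share of the set overlapped between the days: 7.34%, 6.75% and 7.38% of the counts in the day 5 libraries and 7.08%, 4.22% and 5.67% in the day 7 libraries. Day 7 replicate 1 lay above day 5 replicate 2, and the two-sided exact permutation test gave p = 0.2. At day 5 the top 10 members made up 51.5% of the sum.

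Replicates differed widely in most of this set. The pooled SD of log2 CPM within day 5 and day 7 had a median of 0.911 in the set, against 0.216 over all tested and 0.298 among the called members. The main direction of difference between replicates was taken from the 9 libraries of day 0, day 3 and juveniles, as the first component of their deviations from group means, and it held 38.5% of that variance. Scores on it were 81.5 for day 0 replicate 3 and 69.9 for day 3 replicate 3. Projected on it, day 5 libraries scored -17.7, 4.52 and 13.2 and day 7 libraries 3.10, -53.0 and 49.9. In the set of 3037, 2252 transcripts followed this direction with a correlation of at least 0.8 in size, and 785 did not.

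The 2252 that followed it had a median log2 CPM, relative to the day 5 group mean, of -0.389, 0.0932 and 0.304 in the day 5 libraries and of -2.03, -3.59 and -0.841 in the day 7 libraries. Every day 7 library was below every day 5 library, but day 3 replicates 1 and 2, at -1.11 and -0.889, were lower than day 7 replicate 3. Day 7 replicate 2 was at the juvenile level of -3.62 to -3.27. Of these transcripts 3 (0.133%) were called lower, with a median log2 fold change of -1.83 and a median pooled SD of 1.03. Of all 6483 tested transcripts that followed the direction 7 (0.108%) were called lower, and of the 40253 others 236 (0.586%), so a share of 0.133% is near that of any transcript on it. The 785 that did not follow it were at -0.0189, -0.0612 and 0.107 at day 5 and at -1.08, -1.38 and -0.926 at day 7, after 1.03, 1.19 and 1.49 at day 0 and 0.371, 0.224 and 0.471 at day 3, and at -3.39 to -3.24 in juveniles. These library medians did not overlap between any 2 groups. The split used replicate differences at day 0, day 3 and in juveniles, which favours close replicates in those groups. For the 785 the median log2 fold change from day 5 to day 7 was -1.12, and 170 (21.7%) were called lower. The summed share of the 785 did overlap, at 6.27%, 5.09% and 5.37% of the counts at day 5 and 6.74%, 4.10% and 4.86% at day 7, where replicate 1 lay above every day 5 library. How easily a transcript is called depends on its spread, so the 3 and the 170 do not compare the size of the falls. When 3 libraries (day 7 replicate 2 and the third replicates of day 0 and day 3) were all dropped, 786 of 2849 were called lower in place of 173 of 3037. These libraries were chosen with their positions known. Day 7 replicate 3 was kept, although it scored 49.9 on the replicate direction, beside -53.0 for day 7 replicate 2.

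**Figure D5:**
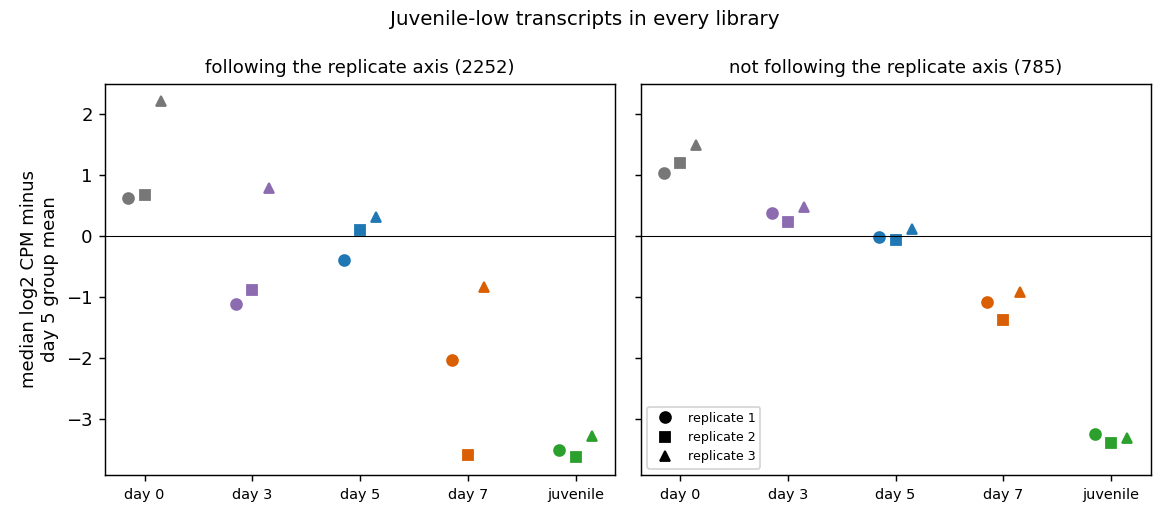
Median over juvenile-low transcripts of log2 CPM minus the day 5 group mean (y axis, same scale in both panels) in each of the 15 libraries, by group (x axis), for the 2252 that followed the main difference between replicates of the other groups (left) and the 785 that did not (right). Replicates spread widely on the left, where day 3 replicates 1 and 2 lie below day 7 replicate 3, and stay close on the right. There the library medians of each later day lie lower than those of the earlier days. Those of juveniles, which are not a time point of the series, lie lowest. The split was made on replicate differences at day 0, day 3 and in juveniles, which favours this contrast between the panels in those groups.

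The same choice gave 61 transcripts that juveniles held at a level at least 4-fold above day 0. Their summed share of the counts was 0.0207%, 0.021% and 0.0162% in the day 5 libraries and 0.0382%, 0.0399% and 0.0399% in the day 7 libraries, with 0.042%, 0.0429% and 0.0316% in juveniles. Every day 7 library lay above every day 5 library, and the two-sided exact permutation test gave p = 0.1, the smallest that 3 against 3 libraries can give. At day 5 the top 10 members alone made up 92.0% of the sum. Single transcripts moved less clearly: 52 (85.2%) had an estimate above 0 against 53.3% of all tested, the median log2 fold change was 0.58, and 3 (4.92%) were called higher against 0.280%. The step before it, which shares the day 5 libraries, had a median of 0.71, with 7 members called higher, and day 3 shares of 0.0051%, 0.00522% and 0.00391%. Of the 61, the number called was 2, 0 and 1 without day 5 replicate 1, 2 or 3. It was 2 without day 7 replicate 1 or 3 and 5 without day 3 replicate 3. Leaving out a day 0 or juvenile library changed the set as well. Without day 0 replicate 3 the calls were 5 of 144, and without juvenile replicate 1 or 2 they were 2 of 82 and 2 of 69.

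Whether the last step differed from the step before it, of the same length of 2 days, was tested as the difference of the 2 log2 fold changes in the same fit. The edgeR test called 5 of 46736 transcripts, 4 with a higher change in the last step (0.00856%) and 1 with a lower change (0.00214%), while the unadjusted p was under 0.05 for 3894 and DESeq2 passed 169. The named GDAG01048869.1 and GDAG01011988.1 were among the 4, with differences of 1.20 (SE 0.16) and 0.79 (SE 0.11), both at an edgeR adjusted p of 0.036. The other 3 are named because they are few, after their values had been seen. GDAG01000343.1 went from 42.0, 46.7 and 41.3 CPM at day 3 through 35.6, 39.2 and 36.8 CPM at day 5 to 56.0, 62.9 and 53.4 CPM at day 7, a difference of 0.85 (SE 0.12, edgeR adjusted p = 0.036). GDAG01012206.1 went from 1.13, 1.83 and 1.44 CPM through 0.741, 0.773 and 0.681 CPM to 1.97, 2.18 and 2.91 CPM, a difference of 2.68 (SE 0.40, edgeR adjusted p = 0.04). Both had day 5 libraries below all libraries of day 3 and of day 7, a pattern that the choice by a positive difference favours.

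GDAG01033469.1 was the exception, since it had risen in the earlier step (log2 fold change 2.26, SE 0.18, edgeR adjusted p = 9e-05) and did not pass the test in the last (0.17, SE 0.16, edgeR adjusted p = 0.67). It had 1.42, 0.943 and 1.34 CPM at day 3, 5.45, 5.22 and 7.26 CPM at day 5 and 7.04, 5.55 and 7.63 CPM at day 7, where day 5 and day 7 libraries overlapped, and the difference of the steps was -2.09 (SE 0.28, edgeR adjusted p = 0.036). These calls rested on few libraries. The count of 5 became 0 when any day 5 library, any juvenile library, or day 7 replicate 1 or 2 was left out. It was 56, 1 and 3 when day 3 replicate 1, 2 or 3 was dropped, and 45 when day 0 replicate 3 was. Of the 243 fallen transcripts neither named member passed this test (GDAG01013458.1 -1.23, SE 0.25, edgeR adjusted p = 0.16, and GDAG01077288.1 -1.01, SE 0.26, edgeR adjusted p = 0.26). In the juvenile-low set the median log2 fold change was 0.12 from day 3 to day 5 and -1.71 from day 5 to day 7. These 2 steps share the day 5 libraries. The 1 member of the set that passed the test of the difference was GDAG01033469.1, which did not fall in the last step. The median difference of the steps was -1.95 in the set. The edgeR unadjusted p was under 0.05 for 315 members with a lower change and 3 with a higher change in the last step. Over all 46736 these numbers were 1798 and 2096. The 0.12 does not show a steady level, since the day 3 libraries differed. Relative to the day 5 group mean, their median log2 CPM was -0.999, -0.794 and 0.718 in replicates 1, 2 and 3. The day 3 to day 5 median was 0.169 for the 2252 following the replicate direction and -0.297 for the other 785.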

How the data were processed

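The deposited values are raw counts of reads for each sequence record and library; this unit follows from the whole numbers and unequal library totals. Bowtie2 was used, per the submitters' processing notes. The version, reference sequences, counting step and handling of reads that match several records: not given in the sources used here. Per the labels' protocols the RNA was prepared with TRIzol and a TruSeq kit. That kit keeps no strand information, so a transcript and an overlapping antisense partner share reads. Columns were matched to samples by title.

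Records with low counts were removed with filterByExpr on the 5 groups (minimum count 10, minimum total count 15), counts were scaled by TMM, and 1 robust quasi-likelihood fit of all 15 libraries was made with group as the only term (10 residual degrees of freedom) in edgeR 4.0.16 under R 4.3.3, with limma 3.58.1 and DESeq2 1.42.0 for alternatives. P-values were adjusted over all 46736 records by the Benjamini-Hochberg method, and calls were made at 0.05. The SE of a log2 fold change is its size divided by the square root of the F statistic. CPM uses TMM-scaled library sizes; log2 CPM for sets adds a prior count of 2; shares are of a library's total count. The scripts were tested on simulated data. Replicates differed by more than sampling noise (chi-square per degree of freedom 6.3 to 17.2 between pairs of day 5 and of day 7).

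Named transcripts were the 2 higher and the 2 lower with the smallest adjusted p, ties by size, with at least 1 CPM at day 5 or day 7, separated libraries, and no counts within 10% of a named record in every library. The comparison, sets and rule were chosen with earlier results of these data known; the split by the replicate direction and the count of lowest and highest group means were added after values had been seen. Gene lists prepared by name could not be matched to the identifiers and were not used.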

Additional observations from a re-analysis of the deposited data

Results flagged for a closer look

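Replicate groups of 3 are too small for a check of single outlying libraries. In the test of the last step against the step before it, 5 transcripts stood out because their change from day 5 to day 7 differed from their change from day 3 to day 5. The differences on the log2 scale were 1.20 for GDAG01048869.1, 0.79 for GDAG01011988.1, 0.85 for GDAG01000343.1, 2.68 for GDAG01012206.1 and -2.09 for GDAG01033469.1. For the first 4 every day 7 library was above every day 5 library, as for 11.3% of all tested. The choice by a positive difference favours this separation. Over 27 alternatives the differences of GDAG01048869.1 ranged from 1.03 to 1.40, with an edgeR, DESeq2 or limma adjusted p of 8.5e-06 to 0.18 and 13 alternatives above 0.05. Those of GDAG01033469.1 ranged from -2.27 to -1.76, with an adjusted p of 2e-05 to 0.18 and 15 alternatives above 0.05. None of the 5 changed direction under any of the 27.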

How the results depend on the processing

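The log2 fold changes of the 4 transcripts named by rule kept their direction and their call under all 27 alternatives, at 0.885 to 1.09 for GDAG01048869.1, 0.631 to 0.837 for GDAG01011988.1, -1.92 to -1.55 for GDAG01013458.1 and -1.75 to -1.51 for GDAG01077288.1, with adjusted p of at most 0.0027. All 374 called transcripts kept their direction where tested, which was 355 of them at CPM of at least 1 in 3 libraries. The separation of their day 5 and day 7 libraries largely fixed this in advance. Counts moved more, and the cause was not tested. In place of 131 higher, 243 lower, 13 higher and 166 lower by at least 2-fold, 5 step differences, 173 juvenile-low and 3 juvenile-high calls, DESeq2 gave 410, 910, 22, 619, 169, 631 and 6. A fit chosen after seeing the data left out day 7 replicate 2 and the third replicates of day 0 and day 3. It gave 317, 1261, 43, 784, 2021, 786 and 10, the last from a set of 144. Voom with quality weights gave 337, 413, 35, 63 step differences and 7 juvenile-high calls, and the groups compared fitted alone 409, 505, 36, 1 and 7. Upper-quartile factors gave 215, 156, 43, 0 and 5, the last from a set of 150. Without the low-count filter there were 20 rises of at least 2-fold, 51 step differences and 5 juvenile-high calls from a set of 222. The 12 trunk libraries alone gave 72 rises, 7 of at least 2-fold, and 0 step differences. There were also 0 step differences at CPM of at least 1 in 3 libraries and with a non-robust spread. At a 2-fold bound the juvenile-high calls were 6 of 991 (0.605%), against 0.280% of all tested. Leaving out single libraries gave 34 to 230 higher, 140 to 383 lower, 2 to 26 and 104 to 200 by at least 2-fold, 0 to 56 step differences, 110 to 200 juvenile-low and 0 to 5 juvenile-high calls. The juvenile sets were chosen anew when a day 0 or juvenile library was left out. The juvenile-high set then held 69 to 144 transcripts.

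Same-numbered libraries of day 5 and day 7 correlated at -0.00838, -0.0645 and 0.229 in their deviations from group means, and day 5 replicates 1 and 2 correlated best with day 7 replicates 2 and 3, so the numbers were not taken as pairs (each pair had to exceed 0.1). Replicate 3 nevertheless scored highest on the main replicate direction in all 5 groups, and whether a number marks a shared batch was not tested. With the replicate block there were 469 higher, 2159 lower, 58 and 1868 by at least 2-fold, 29 step differences, 1779 juvenile-low and 11 juvenile-high calls, and all 374 were among the calls. Calls were fewer among low transcripts: under 1 CPM, 7 of 23450 were called higher and 35 lower, against 55 and 56 of 5235 at 20 to 100 CPM, with a median pooled SD of log2 CPM of 0.317 against 0.0655; the part of depth in this was not tested.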

Other observations

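A further group of transcripts moved by at least 2-fold in the estimate from day 5 to day 7 without being called. It held 2898 lower and 285 higher transcripts. Of the 2898, 2397 belonged to the juvenile-low set, which held 3037 of the 46736 tested. All day 7 libraries lay below all day 5 libraries for 2546 of the 2898, against 14.5% of all tested. The pooled SD of log2 CPM of the 2898 had a median of 0.947, against 0.301 for the 166 called falls of at least 2-fold. The 285 higher ones were scarce, with a median of 0.142 CPM at day 5. Of them, 226 had all day 7 libraries above all day 5 libraries, against 11.3% of all tested. Both lists were chosen by the size of the change between these same libraries, which favours such separation.

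No transcript switched from no count in the day 5 libraries to at least 10 counts in each day 7 library, or the other way. Among transcripts with no count at day 5 the largest summed count at day 7 was 15, and among those with no count at day 7 the largest at day 5 was 22. Of 513 tested records with identifiers of other formats than the main assembly, 1 was called higher and 3 lower, or 0.78%, against 0.280% higher and 0.520% lower of all tested. Near-identical records added little to the calls: 369 of the 374 remained after records within 10% of each other in every library were joined.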
